A study of Mus musculus with 16 samples.

Results

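The cells described here were the stromal cells caught in single-cell RNA libraries of mouse liver-draining lymph nodes. They were chosen by measured values. A barcode counted as a cell when it held at least 1000 RNA UMIs (unique molecular identifiers, 1 for each captured transcript) from at least 500 genes, with no more than 10% from mitochondrial genes. It counted as stromal when its UMIs of the matrix genes Col1a2, Col3a1, Dcn and Sparc summed to 10 or more, with at most 1 UMI of Ptprc (CD45) and none of the T cell gene Cd3e or the B cell gene Cd79a. Of 21187 cells in 4 libraries, 342 passed. The cells nearest to the limit inside had sums of 11, 12, 16 and 19 UMIs, and 11 cells without immune genes lay just outside with sums of 5 to 9.

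All mice were male C57BL/6J aged 6 to 12 weeks. Injury came from the porphyrin-inducing compound DDC (diethoxycarbonyl-dihydrocollidine), mixed into the chow at 0.1%, which damages the bile ducts. Hepatoduodenal and celiac nodes were pooled and digested. Each of the 3 CITE-seq libraries, which read RNA and 11 antibody tags together, covered 1 day of diet: D0 (control), D5 (6 days in another label of the same library) and D19. Cells for them had been sorted through several gates and mixed at equal ratios, including Pdpn+ and Cd45- Pdpn- gates. The fourth library was a pool of a D19 arm (its label also gives 18 days) and a STOP arm, in which 18 days of DDC were followed by 7 days of recovery. That pool had been sorted for Cd45+ Cd3e+ TCRβ- TCRγδ+ T cells, so stromal cells were not its target. Each condition was 1 library or 1 arm, so no test between days was possible. Intervals below are 95% exact Poisson (levels) or Clopper-Pearson (shares) intervals and cover counting error only.

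Lymph node stroma is a scaffold of fibroblasts. Reticular cells of the T zone make the chemokines Ccl19 and Ccl21a and the survival factor Il7, while Cxcl13 from reticular and follicular dendritic cells draws B cells into follicles. Adventitial fibroblasts around larger vessels and in the capsule carry Pi16, Cd34, Dpt and Cd248, and fibroblasts in general lay down collagen and fibronectin. Metallothioneins (Mt1, Mt2) are small proteins that bind zinc and copper and are induced by metals, glucocorticoids and inflammation.

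In the pool, the arm of a cell was its top antibody hashtag, which needed 10 UMIs and a ratio of 3 to the other tag. The 2 hashtag oligos, shown because the comparison of the arms rests on telling them apart, were as follows, with no part in capitals.
LN_D19: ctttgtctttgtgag
LN_D19_STOP: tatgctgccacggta
Stromal cells carried little of either tag. Their top hashtag had a median of 50 UMIs in the D19 arm (10 lowest) and 145 in the STOP arm (32 lowest), against 1627 and 2564 in the other cells of these arms. Barcodes with free RNA only held a mean of 3.16 UMIs of the D19 tag and 11.9 of the STOP tag. Of 234 stromal cells in the pool, 170 fell to D19, 23 to STOP and 41 to no arm, and the last had a median of 13 top hashtag UMIs. A ratio of 5 to the next tag gave 137 D19 and 23 STOP cells, and a k-means split of the tags gave 211 and 23. Cells without an arm were kept as a group of their own.

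Among the CITE libraries, stromal cells made up a higher share on each later day. They made up 3 of 6542 cells at D0 (0.0459%, 0.00946 to 0.134), 28 of 6248 at D5 (0.448%, 0.298 to 0.647) and 77 of 6753 at D19 (1.14%, 0.901 to 1.42). None of these 3 intervals overlapped. In the pool they made up 170 of 788 D19 cells (21.6%, 18.7 to 24.6) and 23 of 780 STOP cells (2.95%, 1.88 to 4.39), and 41 of the 76 cells without an arm (53.9%, 42.1 to 65.5). The sort set the mix of each library, so a share describes the library and not the node. Between sorts no share was compared. D0 yielded 3 cells, and for it only levels are given.

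**Figure D1:**
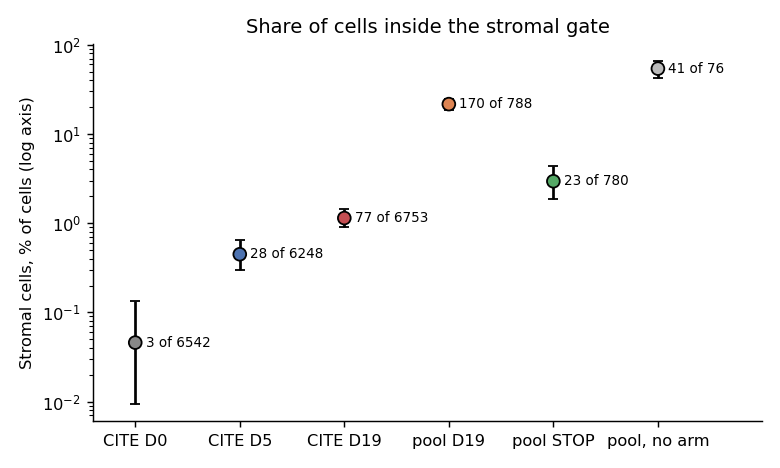
Share of cells inside the stromal gate, in percent on a log axis, for each library or pool arm. Points are shares, bars are exact 95% intervals, and the labels give the counts, from 3 of 6542 cells at CITE D0 to 170 of 788 in the D19 arm of the pool.

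The 4 libraries held 45317389 (D0), 47653941 (D5), 32013882 (D19) and 13074668 (pool) RNA UMIs. Summed over stromal cells this left 11734 UMIs at D0, 150648 at D5, 316309 at D19, 1613983 in the D19 arm, 284514 in the STOP arm and 290767 without an arm. The median stromal cell held 4517, 5596.5, 3657, 8896, 12828 and 6773 UMIs, in the same order. No barcode of a stromal cell was shared between any 2 libraries, although all cells shared 1 to 12 barcodes per pair. Scrublet, a doublet caller, marked 4 stromal cells of CITE D19 and 2 of the pool. Another 2, 11, 15 and 10 cells (D0, D5, D19 and pool) had 10 or more UMIs of the gate genes but were left out for an immune gene.

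Of the fibroblast marker lists, the adventitial one was the most fully detected. All 10 adventitial markers had UMIs at D5, at D19 and in both arms, and 6 of 10 at D0. Their summed level per cell, in UMIs per 10,000, had a median of 19.9 at D0, 46.6 at D5, 29.7 at D19, 43.8 in the D19 arm and 118 in the STOP arm. Of 8 T-zone reticular markers, 5 had UMIs at D5 and at CITE D19, 6 in the D19 arm and 7 in STOP. In the D19 arm 32 cells and in STOP 5 carried 3 or more of them. The median per cell of this list was low, at 2.23 per 10,000 at D5, 2.39 at CITE D19, 3.22 in the D19 arm and 3.28 in STOP. Bst1 had no UMI in any stromal cell. Ccl21a had none outside 1 STOP cell, which held all 32 of its UMIs together with 69.3% of that arm's Cxcl12 and 53.3% of its Ccl19. A count of 0 in the D19 arm allows up to 1.86 CPM (UMIs scaled to a total of 1000000), from 3 counts of the total. Pdpn, the surface protein podoplanin that the CITE sort had used, stood at 66.4 CPM at D5, 41.1 at D19, 190 in the D19 arm and 176 in the STOP arm. Of 5 marginal reticular markers, Madcam1 and Tnfsf11 had no UMI in any arm, while the list, which holds Cxcl13, summed to 2447 CPM at CITE D19 and 2822 in the D19 arm. Of 6 medullary reticular markers, 4 had UMIs at D5 and at CITE D19 and 5 in each arm of the pool. In the D19 arm 33 cells and in STOP 1 carried 3 or more of them. The median per cell of the medullary list was 5.80 per 10,000 at D5, 16.3 at CITE D19, 9.68 in the D19 arm and 2.49 in STOP. These lay below the adventitial median of each group (29.7 at CITE D19). The adventitial list sums 10 genes and the medullary list 6, so the 2 sums are not on one scale and do not rank the types. Of 8 follicular dendritic cell markers, Cxcl13 again among them, 5 had UMIs at D5, 6 at CITE D19, 5 in the D19 arm and 4 in STOP. In the D19 arm 9 cells and in STOP 2 carried 3 or more of them. The 10 mural cell markers had a summed level of at most 48.1 CPM in any arm.

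A few cells carried genes of other types. In CITE D19, 1 stromal cell had 41.8% haemoglobin UMIs, and 3 carried 3 or more of 6 pancreatic acinar markers. The acinar markers summed to 155 CPM there and 0 at D5, and to 30338 CPM in free RNA of CITE D19. In CITE D5 and among cells without an arm, 1 cell each carried 3 or more blood endothelial markers, at 1.39% and 0.560% of its UMIs. Ptprc had its single permitted UMI in 1 cell of CITE D19, 3 of the D19 arm and 1 of the STOP arm. The summed blood endothelial level was 279 CPM at D5, with 10 of 10 markers seen. This D5 level came mostly from the 1 cell above, at 139 per 10,000, and the median cell was at 0. The level was 15.8 CPM at CITE D19 and 14.1 in STOP, with 8 of 10 at 0 in each, and 6.20 CPM in the D19 arm, with 4 at 0. Genes whose value rested on such a cell are named as such below.

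The 108 CITE stromal cells were clustered together, and pool cells were placed by their nearest CITE neighbours. Of 7 clusters, 1 could be named from the markers: a cluster of 22 cells with 8 of 10 adventitial markers up, led by Igfbp5, Pi16 and Ackr3, is called adventitial fibroblast-like. Its 10 leading genes also held Gm42418, a locus that overlaps ribosomal RNA (111196 CPM against 13721 in the other clusters), AY036118 and Lars2, and 17 of its 22 cells were of D5, whose library also held more Gm42418 than that of D19 in cells outside the gate. In the named cluster 1 cell held 58.2% of the Igfbp5 UMIs and 46.7% of the Pi16 UMIs, and 12 and 11 of its 22 cells had any. Ccl7, also among its leading genes, came from 1 cell. The other 6 clusters stayed unnamed. Among them were clusters led by Ech1 and Ndufv3 (19 cells), by haemoglobin genes from 1 cell and then Bambi (18), and by Ptgs2, Has1 and Cxcl13 (17). In the last of these 1 cell held 55.8% of the Cxcl13 UMIs, and 6 of 17 cells had any. Others were led by Rgs16, Hmox1 and Vcam1 (17), and by Gpihbp1 from 1 cell, then Ccl5 and Fabp5 from 2 cells each (10). The last was led by Plau and, from 1 cell, Mmp3 (5). These leading genes are how the clusters were found, not results.

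Adventitial fibroblast-like cells made up 17 of 28 stromal cells at D5 (60.7%, 40.6 to 78.5) and 4 of 77 at D19 (5.19%, 1.43 to 12.8). They made up 39 of 170 in the D19 arm (22.9%, 16.9 to 30.0) and 17 of 23 in the STOP arm (73.9%, 51.6 to 89.8). The cluster led by Ptgs2, Has1 and Cxcl13 took the largest number of cells of the D19 arm, 72 of 170 (42.4%, 34.8 to 50.2), against 4 of 23 in STOP (17.4%, 4.95 to 38.8). These shares rested on the cluster resolution. At 1.5 in place of 1.0 the named class held 7.14% at D5, 16.9% at D19, 48.2% in the D19 arm and 21.7% in STOP, so the order turned in both comparisons. With Gm42418, AY036118 and Lars2 left out of the clustering, it held 64.3% at D5, 23.4% at CITE D19, 75.3% in the D19 arm and 95.7% in STOP. Since the cluster's genes themselves differed between the days, the shares are a description of where cells lay and the gene levels below were taken over all stromal cells.

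The D19 and STOP arms were compared over all their stromal cells, since both arms shared 1 lane. UMIs were summed, scaled to CPM and set side by side as a log2 ratio with 10 CPM added to each. A gene was past the fold where this log2 was 1 or more in size and the Poisson intervals did not overlap. Of 8147 genes with 20 or more UMIs over both arms, 260 were higher in STOP (3.19%) and 270 lower (3.31%), 530 in all (6.51%). The median over all measured genes was -0.05. Next, each gene's top cell was left out of the group where the gene was higher, and the other group kept all its cells. This step, called without the top cells below, kept 137 of the higher and 219 of the lower genes. With each cell weighted equally instead of by its UMIs, the split was 340 higher and 216 lower.

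Most adventitial markers and a part of the matrix list were higher in STOP. Of 24 measured genes of the matrix list, which leaves out the gate genes, 13 were higher and 4 lower, with a median log2 of 1.04. Col1a1, a chain of type I collagen, had 7 UMIs in the D0 cells (597 CPM). Its summed level was 1407 CPM (1224 to 1610) at D5, 348 (286 to 419) at CITE D19, 729 (688 to 772) in the D19 arm and 4362 (4123 to 4611) in STOP. The cells without an arm stood at 437 CPM. Cell by cell, Col1a1 had a median of 38.9 per 10,000 in STOP (5.38 lowest, 118 highest) and of 4.30 in the D19 arm (0 lowest, 77.6 highest), so most but not all cells of the arms were apart.

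Other matrix genes followed. Fn1, fibronectin, was at 4274 CPM (4037 to 4521) in STOP and 973 (926 to 1023) in the D19 arm. Postn, the matrix protein periostin, was at 868 against 88.6 CPM and Col14a1, a collagen of fibril surfaces, at 2657 against 708. Lum, Fbn1, Timp2, Mmp3 and 5 further collagen chains (Col5a1, Col5a2, Col6a1, Col6a2 and Col6a3) completed the higher side. The lower side was made of the basement membrane collagens Col4a1 and Col4a2, the crosslinking enzyme Lox and the protease inhibitor Timp1. Col4a1 was at 605 CPM in STOP against 1344 in the D19 arm, and Timp1 at 84.4 against 450. Without the top cells Timp2 (log2 0.92), Mmp3 (-0.38) and Col4a2 (-0.97) were not past the fold, and 11 higher and 3 lower genes of the list were kept. Beyond the list, Aspn (asporin), a small proteoglycan, was at 489 against 48.3 CPM, and Tnfrsf11b, a decoy receptor for the Tnfsf11 ligand, at 165 against 9.29.

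The gate genes are given as a description only. Col3a1 was at 1892 CPM at D5, 585 at CITE D19, 1268 in the D19 arm and 8474 in STOP, while Dcn (decorin) went the other way, at 24395, 25788, 18458 and 11999 CPM.

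Of 10 adventitial markers, all measured, 8 were higher in STOP and none lower, with a median log2 of 1.42. Dpt, dermatopontin, stood at 1387 CPM (1206 to 1589) at D5, 1233 (1114 to 1362) at CITE D19, 1710 (1647 to 1775) in the D19 arm and 4214 (3979 to 4460) in STOP. Cd248, endosialin, stood at 299, 85.4, 314 and 840 CPM in the same order. Sema3c, a secreted guidance protein, stood at 305, 72.7, 169 and 907 CPM. Within each sort the D19 level of these 3 genes was the lower one, although the intervals of Dpt overlapped between the CITE libraries. Pi16 and Cd34 did not pass the fold: Pi16 was at 1729 against 962 CPM (log2 0.84) and Cd34 at 640 against 390. Within the adventitial fibroblast-like class alone (17 STOP and 39 D19 cells), 3.61% of 4492 measured genes were higher in STOP and 4.65% lower, 8.26% in all. There 7 of 10 markers were higher and none lower, and of 24 matrix genes 14 were higher and 4 lower. The class was itself named from these markers and its members changed with the cluster resolution.

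Metallothioneins and glucocorticoid-responsive genes were lower in STOP: 6 of 7 passed the fold downward and none upward, with a median log2 of -1.57. Mt1 had a level of 170 CPM at D0 (2 UMIs), 1932 (1716 to 2167) at D5, 10132 (9785 to 10489) at CITE D19, 5630 (5515 to 5747) in the D19 arm and 605 (518 to 702) in STOP. Mt2 had no UMI at D0, where a count of 0 allows up to 256 CPM, and stood at 325 CPM at D5, 1638 at CITE D19, 3229 in the D19 arm and 306 in STOP. Both genes were thus high in the 2 groups at D19 and lower at D5 and after recovery. Per cell, Mt1 and Mt2 together had a median of 9.56 per 10,000 at D5 (0 to 122), 81.0 at CITE D19 (0 to 495), 32.9 in the D19 arm (0 to 758) and 6.09 in STOP (0 to 77.2). The median was high at D19 in both sorts, and the ranges of single cells overlapped. The other 4 lower genes were Sgk1, a kinase, Fkbp5, a chaperone of the glucocorticoid receptor, and the transcription regulators Tsc22d3 and Zbtb16. Tsc22d3 was not past the fold without its top cell (log2 -0.99). Per1, a clock gene, was at 28.1 against 58.2 CPM (log2 -0.84).

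The other cells of the arms differed the same way, at lower levels. There Mt1 was at 114 CPM in STOP and 591 in D19, and free RNA, taken from barcodes with 10 to 100 UMIs, held 1369 CPM of Mt1. With free RNA subtracted, the log2 of Mt1 in stromal cells moved from -3.20 to -3.22.

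Because Mt1 and Mt2 were both lower in STOP and both higher at CITE D19 than at D5, and lie side by side, their RefSeq promoters are shown. Each spans 250 bases before to 50 after the start (GRCm38.p6). That of Cxcl13, which differed in the same directions, is set beside them, so match counts and levels were not related. Capitals mark TGCACNC or TGCGCNC on either strand, the core of the metal response element. The promoter of Mt1 (chr8:94178839-94179138, plus strand) held 3 matches, all forward, that of Mt2 (chr8:94172368-94172667, plus strand) 4, of which 2 were on the reverse strand, and that of Cxcl13 (chr5:95956689-95956988, plus strand) 1.
Mt1: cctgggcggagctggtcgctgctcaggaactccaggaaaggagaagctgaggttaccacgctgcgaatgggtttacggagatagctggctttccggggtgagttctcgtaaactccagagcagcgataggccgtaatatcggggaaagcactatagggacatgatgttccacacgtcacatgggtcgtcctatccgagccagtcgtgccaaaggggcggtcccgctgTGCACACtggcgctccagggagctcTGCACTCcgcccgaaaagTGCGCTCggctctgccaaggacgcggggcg
Mt2: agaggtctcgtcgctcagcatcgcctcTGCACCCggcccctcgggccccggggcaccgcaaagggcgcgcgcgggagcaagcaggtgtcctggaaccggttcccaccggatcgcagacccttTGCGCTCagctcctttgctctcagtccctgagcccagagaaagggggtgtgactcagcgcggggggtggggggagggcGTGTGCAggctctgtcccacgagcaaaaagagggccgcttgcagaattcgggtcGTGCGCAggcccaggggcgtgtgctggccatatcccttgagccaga
Cxcl13: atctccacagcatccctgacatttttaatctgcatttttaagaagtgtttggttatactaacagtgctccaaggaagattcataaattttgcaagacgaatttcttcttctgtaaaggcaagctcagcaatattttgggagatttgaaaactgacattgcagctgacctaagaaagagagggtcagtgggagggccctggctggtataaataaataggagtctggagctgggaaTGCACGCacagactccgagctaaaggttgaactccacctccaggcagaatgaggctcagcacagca
Of 32851 promoters of this length, 25.7% held at least 1 match, 1.97% at least 3 and 0.517% at least 4. Matches are letters in these windows and were not tested as binding sites.

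Cxcl13 showed the largest log2 difference downward in STOP with 10 CPM added. With 1 CPM added, Cxcl14 (-7.08) and Prg4 (-6.96), which had no UMI in STOP and so only a bound, came before Cxcl13 (-5.01). No UMI was seen at D0, where up to 256 CPM would be allowed. The level was 624 CPM (504 to 764) at D5, 2175 (2016 to 2344) at CITE D19, 2748 (2668 to 2830) in the D19 arm and 84.4 (54.0 to 126) in STOP. The log2 of STOP over D19 was -4.87, and -4.68 without the top cells. Cxcl13 came from a minority of cells in each group: 9 of 28 at D5, 26 of 77 at CITE D19, 70 of 170 in the D19 arm and 6 of 23 in STOP had any UMI, and the median cell had none. The highest cell held 81.4 per 10,000 at D5, 356 at CITE D19, 418 in the D19 arm and 5.40 in STOP. The groups thus shared their cells at 0 and differed in the upper range. After thinning every cell to 1000 UMIs, 17.9, 22.1, 27.1 and 8.70% of stromal cells (D5, CITE D19, D19 arm, STOP) had a UMI, against 0, 0, 0 and 0.5% of cells with Cd3e UMIs.

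Cxcl13 also differed in the other cells of the arms (4.49 CPM in STOP, 120 in D19) and reached 359 CPM in free RNA of the pool. With free RNA subtracted the log2 was -4.93. Within the adventitial fibroblast-like class it was -5.63. Cxcl13 and Pi16 were carried together by part of the cells, and whether more often than by their separate shares was not tested. Taking 3 or more UMIs of a gene, 56 of 170 cells of the D19 arm carried Cxcl13 (32.9%), 73 carried Pi16 (42.9%) and 25 both. In CITE D19, 19 carried Cxcl13, 3 Pi16 and none both, and in STOP 4, 15 and none.

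**Figure D2:**
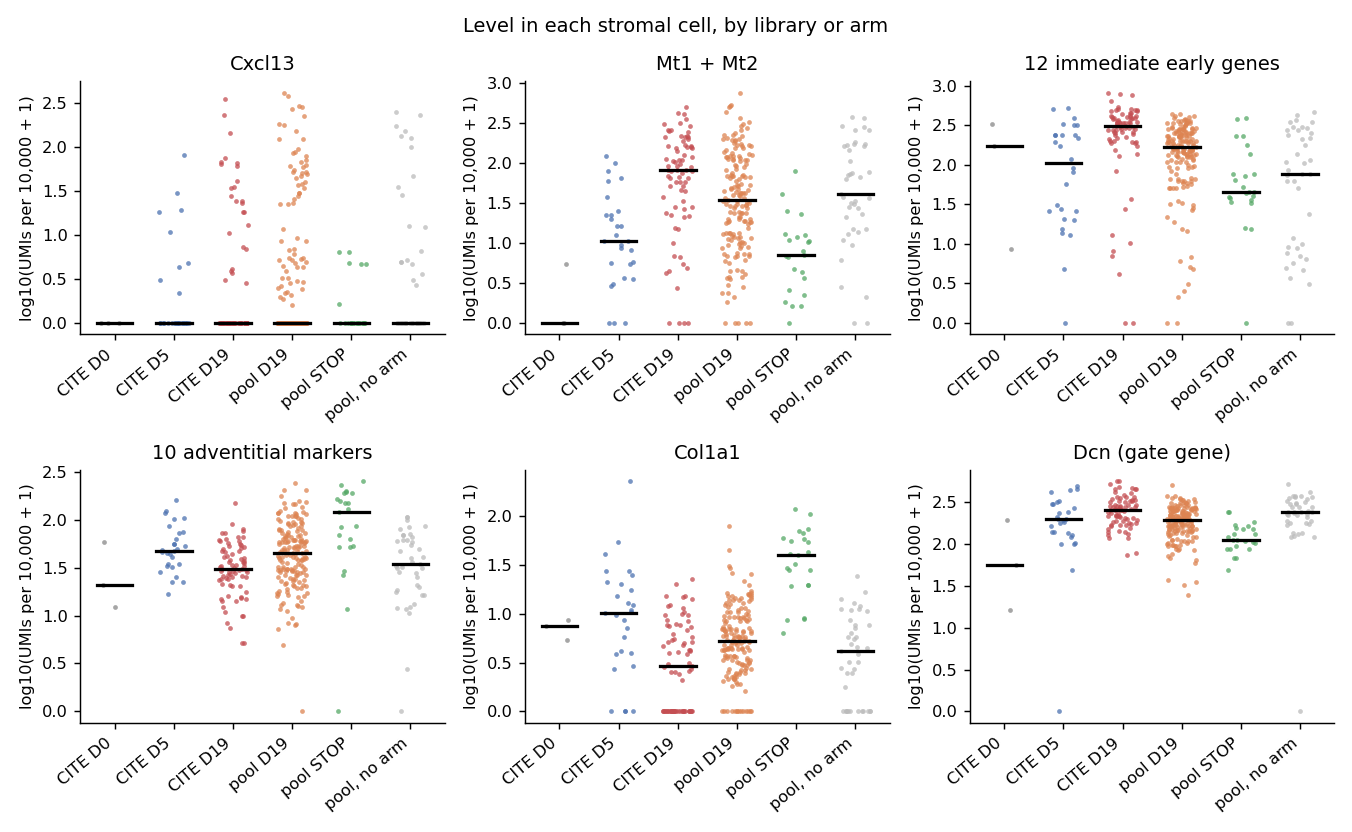
Level in each stromal cell, as log10 of UMIs per 10,000 plus 1, for Cxcl13, Mt1 and Mt2 together, the 12 immediate early genes, the 10 adventitial markers, Col1a1 and the gate gene Dcn. Each point is a cell and each bar the median of its library or arm. Cxcl13 has a median of 0 everywhere and reaches less high in STOP than in the D19 arm (5.40 and 418 per 10,000 in the highest cell), while the adventitial sum and Col1a1 have higher medians in STOP (118 and 38.9 per 10,000) than in the D19 arm (43.8 and 4.30).

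Further genes were among the 8 largest differences downward. Cxcl14, a chemokine, had no UMI in STOP (up to 10.5 CPM allowed) and 134 CPM (117 to 153) in the D19 arm, 12.7 times that limit. Prg4, the lubricating proteoglycan lubricin, had none either and 124 CPM (107 to 142) in the D19 arm, 11.8 times the same limit. The other cells of the D19 arm held more Prg4, 244 CPM. Fabp4, a fatty acid carrier, was at 10.5 against 275 CPM, Ccn2, a matricellular protein induced by TGF-beta, at 28.1 against 346, and the heat shock protein Hspb1 at 24.6 against 297.

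The list of immediate early genes, fast responders that tissue digestion also induces, had 7 of 12 lower in STOP and none higher, with a median log2 of -1.10. With each cell weighted equally 4 of 12 were lower, with a median of -0.70. Fos was at 1174 CPM in STOP and 4137 in the D19 arm, Egr1 at 1406 and 3221, and Nr4a1 at 148 and 597. Their sum per cell had a median of 44.2 per 10,000 in STOP and 165 in the D19 arm. Within the adventitial fibroblast-like class 2 of 10 measured were lower, where 4.65% of all genes were. In the other cells of the arms Fos was at 532 against 928 CPM and Atf3 at 126 against 66.9, so they did not all move alike. Of the inflammatory list, 5 of 12 were lower and none higher (Cxcl1, Ccl2, Nfkbia, Icam1 and Ptgs2), with a median log2 of -0.33. Cxcl1, which attracts neutrophils, was at 105 against 437 CPM. Ccl2 rested on few cells, with 71.0% of its UMIs in 1 cell of the D19 arm. Il6 and Il33, cytokines made by fibroblasts, did not pass the fold, at 186 against 236 CPM and 334 against 220.

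The remaining lists had fewer calls. The IL-17 pathway list had 2 of 6 lower, Nfkbiz (63.3 against 196 CPM) and Lcn2 (1 UMI in STOP against 108). The TGF-beta and growth factor list had 4 of 21 lower, among them Tgfbr1, Ccn2 and Igfbp3, and the hypoxia and glycolysis list 2 of 8 (Ldha and Hk2). The interferon list had 3 of 8 higher (Isg15, Oasl2 and Iigp1), and 1 of them without the top cells. The T-zone niche list of 9 had Cxcl13 lower and Ccl21a higher, the latter from 1 cell. Ch25h, which makes an oxysterol, was among the 8 largest differences upward at 102 against 6.82 CPM, but its log2 without the top cells was -0.31. Cmah (183 against 8.67 CPM), Tppp3 (330 against 39.7) and Adamts16 (94.9 against 6.20) were also among them and held without the top cells.

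**Figure D3:**
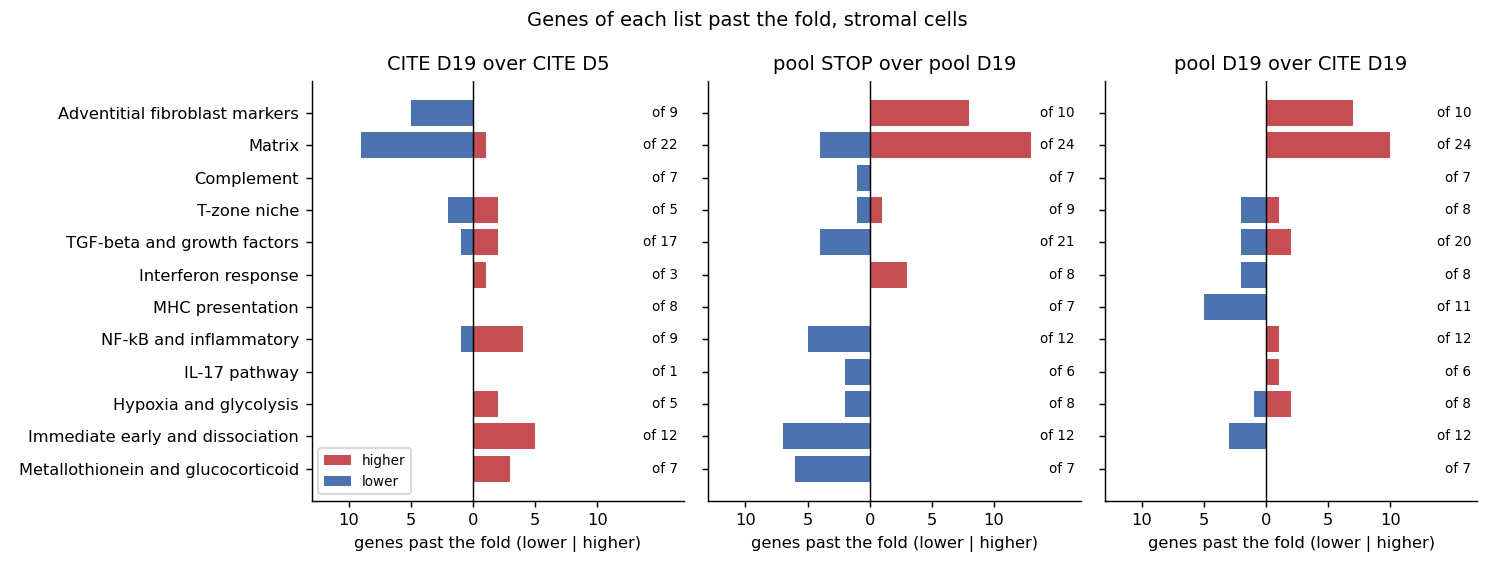
Number of genes of each fixed list past the fold, lower to the left and higher to the right, in 3 comparisons of stromal cells, with the number measured at the right. Of the matrix and adventitial genes, 9 of 22 and 5 of 9 are lower in CITE D19 against D5, and 13 of 24 and 8 of 10 are higher in STOP against D19.

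CITE D19 was set against CITE D5, the only other pair of days with 20 or more stromal cells each. Of 3190 measured genes, 148 were higher at D19 (4.64%) and 177 lower (5.55%), 325 in all (10.2%), with a median log2 of -0.08. With each gene's top cell left out of the library where it was higher, 114 of the higher and 86 of the lower genes were kept. The split also depended on scaling. Trimmed mean scaling (TMM) moved the median to 0.24 and gave 289 higher and 65 lower genes. Gm42418 held 95069 CPM at D5 and 2703 at D19, and with it, AY036118, Lars2 and the haemoglobin genes left out the split was 105 to 247. In the other cells of these libraries Gm42418 was at 30064 and 1417 CPM. With these genes left out, 5 of 9 adventitial markers and 10 of 22 matrix genes were lower, against 5 and 9 with them.

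The adventitial markers were lower at D19 in 5 of 9 measured cases and higher in none (median log2 -1.38), and the same count held under TMM. Pi16, a protease inhibitor of adventitial cells, was at 60.1 CPM (36.2 to 93.8) against 558 (445 to 690), with 50% of its D5 UMIs in 1 cell and a log2 of -2.12 without the top cells. Cd34, Cd55, Sema3c and Cd248 were the others. Of 22 matrix genes 9 were lower and 1, the protease Mmp3, was higher, with a median log2 of -0.70. The count of lower genes was 4 under TMM and 5 without the top cells. Col1a1 was at 348 against 1407 CPM and Fn1 at 338 against 710. Igfbp5, an IGF-binding protein, was at 161 against 1447 CPM, with a log2 of -1.66 without the top cells.

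Metallothioneins were on the other side. Mt1 (log2 2.39), Mt2 (2.30) and Sgk1 were the 3 of 7 genes of their list that were higher, with none lower. Sgk1 did not pass the fold without its top cell (log2 0.88). The cells outside the gate had Mt1 at 178 CPM at D19 and 59.8 at D5. Immediate early genes were higher in 5 of 12 cases and lower in none (8 of 12 under TMM). Fos was at 7875 against 3146 CPM and Nr4a1 at 733 against 206, and their sum per cell had a median of 303 per 10,000 at D19 and 104 at D5. The inflammatory list had 4 of 9 higher (Cxcl1, Il6, Nfkbia and Ptgs2) and Ccl7 lower, with 94.5% of its D5 UMIs in 1 cell. Without the top cells Ptgs2 (log2 0.62) was not past the fold and Ccl7 turned to 1.11.

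Of the T-zone niche genes, Cxcl13 and Ccl19 were higher at D19 and Vcam1 and Flt3l lower, out of 5. Ccl19, a ligand of the receptor Ccr7 on T cells and dendritic cells, was at 221 CPM (173 to 280) against 79.7 (41.2 to 139). Without the top cells, Cxcl13 (log2 1.23) and Flt3l (-1.74) were still past the fold, Ccl19 (1.01) was not, and Vcam1 turned to 0.85. With 10 CPM added, the largest upward difference that did not rest on 1 cell was Nr1d1, a clock gene and repressor. It had 51 UMIs (161 CPM, 120 to 212) at D19 and none at D5. The D19 level was 8.10 times the 19.9 CPM that a count of 0 at D5 allows. Nr1d1 was at 104 CPM in the D19 arm and 3.51 in STOP. The 4 haemoglobin genes led the higher side, but from 1 cell, and Gpihbp1, an endothelial lipase anchor, led the lower side with Gm42418 and also came from 1 cell.

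The 2 groups labelled D19 came from different sorts and differed as well. Of 8060 measured genes, 459 were higher in the D19 arm of the pool than in CITE D19 (5.69%) and 119 lower (1.48%), 578 in all (7.17%), with a median log2 of 0.21 that TMM moved to 0.12 (316 higher, 168 lower). The adventitial markers were higher in 7 of 10 cases and the matrix genes in 10 of 24, with none lower in either. Of the immediate early list 3 of 12 were lower in the D19 arm and none higher (median log2 -0.92), and 10 of 12 under TMM. Pi16 was at 962 against 60.1 CPM and Timp1 at 450 against 28.5. The MHC list was lower in 5 of 11 cases, among them Cd74 (6.20 against 107 CPM), which stood at 4870 CPM in the other cells of CITE D19 and 1800 in those of the D19 arm. With free RNA subtracted 1 of the 5 remained. Cxcl13 (2748 against 2175 CPM) and the 7 metallothionein and glucocorticoid genes did not pass the fold. Both groups were labelled D19, and sort and library cannot be told apart between them. Adventitial and matrix levels of different sorts are therefore given side by side only, and each day comparison stayed within a sort.

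STOP against D19 and D19 against D5 shared no sample, and 3172 genes were measured in both. Of the 118 of these genes higher in STOP, 31 were lower at D19 than at D5 (26.3% of the first and 17.8% of the second list), and 1 was higher. Of the 189 lower in STOP, 38 were higher at D19 than at D5 (20.1 and 27.0%), and 3 were lower. Over the same 3172 genes, 3.72% were higher and 5.96% lower in STOP, and 4.45% were higher and 5.49% lower at D19 than at D5. The calls of D19 against D5 moved with the scaling and with the top cells, as given above. These overlaps were counted with the main settings only. Cxcl13, Mt1, Mt2, Sgk1 and Nr1d1 were among the genes high at D19 in both, and Col1a1, Fn1, Sema3c, Cd55 and Cd248 among those low at D19 in both. Of these, Sgk1 was not past the fold in D19 against D5 without its top cell. Under TMM, 4 matrix genes were lower at D19 than at D5, in place of 9.

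**Figure D4:**
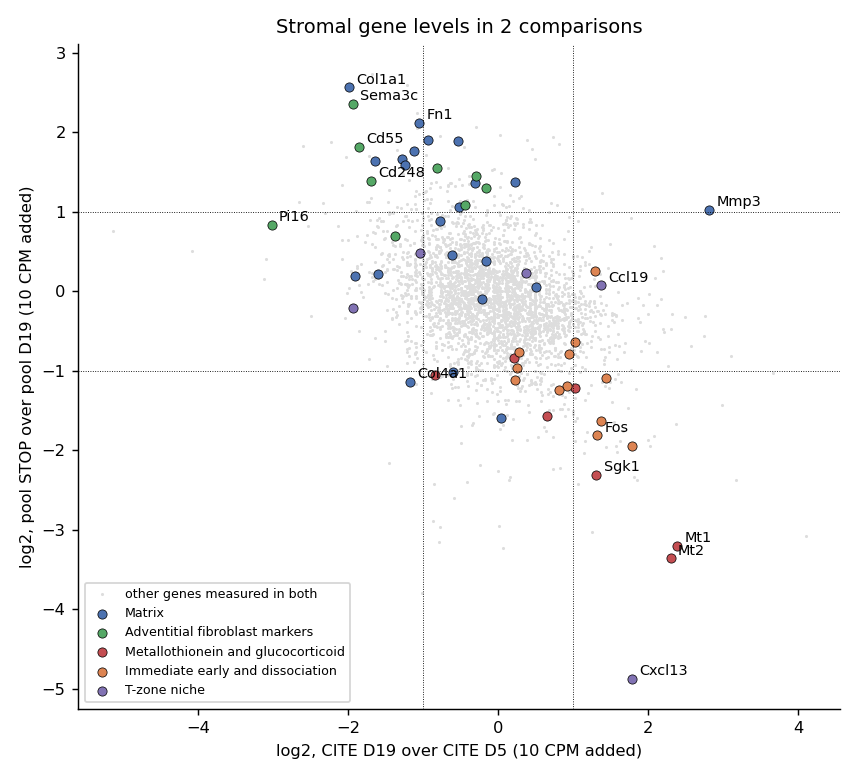
log2 of CITE D19 over CITE D5 (x axis) against log2 of STOP over D19 in the pool (y axis), with 10 CPM added, for the 3172 genes measured in both. Coloured points are genes of 5 fixed lists and dotted lines mark a log2 of 1. Cxcl13 lies at 1.79 and -4.87 and Mt1 at 2.39 and -3.20, while Col1a1 and Sema3c lie at the upper left and Mmp3 at the upper right.

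Stromal cells held 0.393% of the UMIs of all cells at D5 and 1.13% at D19, but most of the UMIs of several secreted factors. They held 77.2% (70.2 to 83.3) of Ccl11, the eosinophil chemokine eotaxin, at D5 and 72.1% (67.8 to 76.2) at D19. They held 71.1 and 77.4% of C3, the central complement protein, 62.6 and 66.0% of the growth factor Igf1, and 57.3 and 55.8% of Cxcl13. For Cxcl12, a chemokine that retains lymphocytes and progenitors, these cells accounted for 50% of UMIs at D5 (43.5 to 56.5) and 75.5% at D19 (71.2 to 79.5). Il6 went from 2 of 32 UMIs to 38 of 52 (6.25 and 73.1%), and Mt1 from 11.3 to 39.5%. The stromal share of all UMIs was itself higher at D19 (0.393 and 1.13%), and the sort set the mix of each library. A share of a gene's UMIs thus describes the library and not the node. None of the 402 Ccl21a UMIs at D5 or 54 at D19 lay in the stromal cells. For other secreted factors, too, most UMIs lay outside the stromal cells at D5 and D19. Among them were Ccl19 (12.6 and 44.3% in stromal cells), Vegfa (11.7 and 18.3%) and Flt3l (1.99 and 1.23%). Cxcl12 stood at 803 CPM at D5, 1043 at D19, 447 in the D19 arm and 527 in STOP, where 1 cell held 69.3% of its UMIs. Without that STOP cell the log2 of Cxcl12 in STOP over D19 turned from 0.23 to -1.38. The levels of Ccl11 (876 CPM at D5, 1056 at D19, 589 in the D19 arm and 622 in STOP) and C3 (3883, 2583, 3646 and 4988) varied less between groups than that of Cxcl13.

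Of the antibody tags, which the gate did not use, CD80 was the one with the largest median in the stromal cells of D19. Its median was 48 tag UMIs in stromal cells (2 lowest, 357 highest) and 9 in the others, and 90.9% against 47.2% had 10 or more. Barcodes with free RNA only held a mean of 4.10. At D5 the medians were 11 and 12, and the free level 5.47. F4_80 (11 against 2) and CD115 (7 against 2) were also higher at D19, while CD3 (3 against 6) and CD4 (5 against 7) were lower and CD8a (13 against 10) was higher, with free levels of at most 3.22 for these 5 tags. At D5 the lymphocyte tags CD8a (6.5 against 20), CD4 (3.5 against 16) and CD3 (1 against 8) were lower in stromal cells, and free RNA barcodes held a mean of 5.48 CD8a UMIs. Cd80 RNA, Adgre1 RNA (the gene of F4/80) and Cd8a RNA had no UMI in the stromal cells of any group. Csf1r RNA (the gene of CD115) had none in the CITE libraries and 7 UMIs in 6 cells of the D19 arm. Of 11 tags, 7 were at 10 or more UMIs in a larger share of stromal than of other cells at D19 and 0 at D5.

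**Figure D5:**
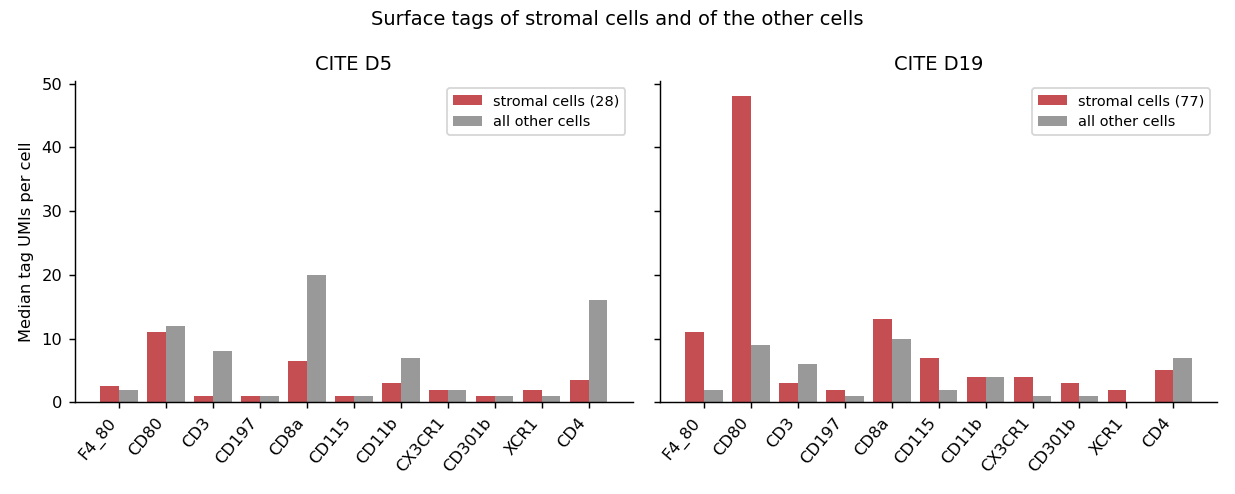
Median antibody tag UMIs per cell in stromal cells and in all other cells of CITE D5 (28 stromal cells) and CITE D19 (77). Bars start at 0. CD80 at D19 stands out, at 48 in stromal cells and 9 in the others.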

How the data were processed

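The authors deposited raw UMI counts per gene and barcode, without a filter for cells, made with Cell Ranger (version 4 in the file headers, build mm10 in the submitters' notes). Of the deposited libraries, 4 lymph node libraries and their antibody tag counts were used. The members, gene lists and comparisons were chosen with earlier results of these data known, and CITE D19 against D5 and the pool D19 arm against CITE D19 were added after the data had been seen. UMIs were summed per group and given as CPM. No p-value was computed, since each group is 1 library or arm, and cells are not replicates. Whether same-day cells came from several mice is not given in the sources used here. Clusters came from leidenalg 0.10.2 in scanpy 1.11.5 at a resolution of 1.0, with 10 neighbours per cell in the space of 10 principal components of the 2000 most variable genes. TMM factors came from edgeR 4.0.16, used for scaling only. Sequences came from RefSeq (GRCm38.p6) and the deposited tag tables. The scripts were tested on simulated data.

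Genes named were taken from the 8 largest differences in each direction past the fold (without gate, mitochondrial, ribosomal protein and receptor segment genes), members of the fixed lists, markers and leading cluster genes. Ccl11 was added after its values were seen, as were Cd80, Adgre1, Cd8a and Csf1r as the genes of antibody tags. The planned comparisons with D0 were not made, because 3 cells remained there and no cluster was reticular-like. Some list members are not reported here by name.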

Additional observations from a re-analysis of the deposited data

Results flagged for a closer look

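Stromal cells of the pool without an arm stood outside the comparisons. Their Cxcl13 level was 4206 CPM (3974 to 4449), with UMIs in 20 of 41 cells and 26.2% of them in 1 cell. This lay above the 2748 CPM of the D19 arm and the 84.4 CPM of STOP, and free RNA of the pool held 359 CPM. Their Mt1 (6156 CPM) and Col1a1 (437 CPM) also lay nearer to the D19 arm (5630 and 729 CPM) than to STOP (605 and 4362 CPM). A k-means split of the hashtags, which had no class for cells without an arm, placed all 41 in the D19 arm. Of the 41 cells, 15 had fewer than 10 UMIs of their top hashtag, so this split cannot decide their sample of origin. That origin was not tested in another way.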

How the results depend on the processing

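The stromal share of each library moved by less than its counting interval under every alternative tried for it. Of the alternatives to the main results, 122 kept the result, 24 moved it and 2 reversed it. The share of adventitial fibroblast-like cells was the least stable result. At a resolution of 0.5 it was 22.1% at CITE D19, 67.1% in the D19 arm and 91.3% in STOP, and STOP exceeded the D19 arm by 24.2 percentage points in place of 51.0. At a resolution of 1.5 the shares were 7.14% at D5, 16.9% at CITE D19, 48.2% in the D19 arm and 21.7% in STOP, so that STOP minus D19 was -26.5 points and D5 minus D19 was -9.74. With stress genes left out of the clustering they were 21.4, 1.30, 6.47 and 43.5% in the same order, with D5 above D19 by 20.1 points. With the Scrublet filter the D19 arm was at 34.7%. With Gm42418, AY036118 and Lars2 left out, a setting added after the data had been seen, the shares were 64.3, 23.4, 75.3 and 95.7%, and STOP exceeded the D19 arm by 20.4 points. The cause was not tested.

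The 530 genes past the fold between STOP and D19 became 180 with 50 CPM added in place of 10. The 325 between D19 and D5 became 213 at 50 or more UMIs and 201 without each gene's top cell. The 578 between the D19 groups became 139 with 50 CPM added, and their list genes 28 in place of 44. At 20 or more tag UMIs, 2 of 11 tags at D5 were more frequent in stromal cells, in place of 0, and 5 at D19 in place of 7, since CD8a (35.1 against 38.5%) and CD301b (3.90 against 9.14%) turned direction. The 2 tags at D5, CD197 and CD115, rested on 1 of 28 stromal cells each. Without the top cells, log2 turned to -0.31 for Ch25h (STOP against D19) and to -0.52 for Hba-a1, -0.043 for Hbb-bs and -0.36 for Hba-a2 (D19 against D5), and to -0.55, -0.069 and -0.38 for these 3 without the cells carrying haemoglobin or endothelial genes. No paired analysis was possible because each group is 1 library or arm and all carry the same single replicate number. Other settings for reticular-like cells against D0 were not run, as no such class was found.

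Depth limits low genes most at D0, where 1 UMI is 85.2 CPM, and then at D5, where a count of 0 allows up to 19.9 CPM, against 10.5 CPM in STOP. In STOP 23 cells stand for the arm, and 11.8% of Col1a1 came from 1 cell.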
